A study of Homo sapiens with 6 samples.

Results

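This account follows 10 genes of the Eph receptor and ephrin family in RKO cells, an established line from a poorly differentiated human colon carcinoma, after a hairpin against TRIM21. They are the receptors EPHA1, EPHA2, EPHA4, EPHB2, EPHB3 and EPHB4 and the ephrins EFNA1, EFNA5, EFNB1 and EFNB2, 10 of the 28278 gene rows in each count table. The genes were chosen by name as family members of intestinal epithelium, with their measured difference between shTRIM21 and shControl in these same libraries already known. Their differences between the groups are therefore given as a description, without p-values. Where the fit over all genes placed one of the 10 past its threshold, that call is stated as a description too and supports nothing. All 10 symbols were found in the tables.

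RNA was sequenced in 6 libraries, 3 from RKO cells with stable knockdown of TRIM21 by a short hairpin (shTRIM21) and 3 from RKO cells with a scrambled hairpin in its place (shControl). Both groups had received lentivirus and both were kept for weeks in puromycin at 5 µg/ml, begun 36 h after infection, so infection and selection are common to all libraries. TRIM21 is a ubiquitin ligase that also binds antibody in the cytosol. The labels call the libraries of a group biological replicates but name neither clones nor separate infections, and they give 1 hairpin description per group, so p-values measure the spread between these libraries, which may be technical. The source is named as mouse tissue in 1 field of the labels, whereas the organism, line and gene symbols are human.

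Eph receptors are receptor tyrosine kinases whose ligands, the ephrins, sit on the membrane of the neighbouring cell. Ephrin-A ligands are held by a lipid anchor and bind mainly EphA receptors, whereas ephrin-B ligands cross the membrane and bind mainly EphB receptors. Binding signals forward into the receptor-bearing cell and in reverse into the ligand-bearing cell, and it often drives cells apart. In the intestine, EphB receptors are transcribed under beta-catenin and TCF in the crypt, where with ephrin-B ligands they help to position cells along the crypt axis.

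Libraries held 33499827 to 44466137 counts, of which ribosomal RNA rows took 17.0% to 23.5% in shTRIM21 and 14.7% to 36.9% in shControl, leaving 27808775 to 29100459 counts outside those rows. TRIM21 had 299, 271 and 297 counts in shTRIM21 and 459, 421 and 343 in shControl, so its transcript fell by 31.3% (log2 fold change -0.54, SE 0.12, edgeR adjusted p = 0.00424), which was -0.34 and not called with library sizes alone as the scaling. Of 14 colon epithelial markers, 11 passed the filter on low counts, including EPCAM, KRT8 and CDX2, while CDX1 and LGALS4 were listed at 0 and MUC2 had 6 reads in all. Of these 11, 3 were higher in shTRIM21 (CDH1, ELF3 and CLDN3) and 3 lower (KRT8, KRT18 and KRT19). This is 54.55% called beside 20.8% of all tested genes, with a median log2 fold change of 0.133. The summed level of the list, mostly KRT8, KRT18 and KRT19, was 4865 to 5111 CPM (counts relative to the TMM-scaled library size) in shTRIM21 against 6177 to 6830 in shControl. Of 10 blood and immune markers 1 passed the filter, CD3E and CD3D being at 0 and PTPRC at 2 reads over all libraries, with a sum of 6.39 to 7.35 CPM in shTRIM21 and 7.78 to 8.90 in shControl. Of 10 fibroblast and endothelial markers 3 passed it, DCN, LUM and CDH5 being at 0, and their sum, mostly COL1A1, was 11.0 to 11.4 CPM in shTRIM21 and 6.58 to 9.91 in shControl. The part of these markers in the results below was not tested.

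Across all 15131 genes tested, 20.8% were called different between the groups (edgeR, quasi-likelihood F test, p adjusted by Benjamini-Hochberg, threshold 0.05), 9.77% higher and 11.0% lower in shTRIM21. Among the 10 genes, 9 passed the filter, EPHA1 being the exception. By the same threshold EPHA2 was called lower and EPHB2 and EFNB2 higher, and 6 were not called. Because this contrast was known when the genes were chosen, nothing is read from these counts against the background. The groups did not overlap for 5 of the 9, against 37.7% of all tested genes. The median log2 fold change of the 9 was -0.058, and that of all tested genes was 0.0054.

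**Figure D1:**
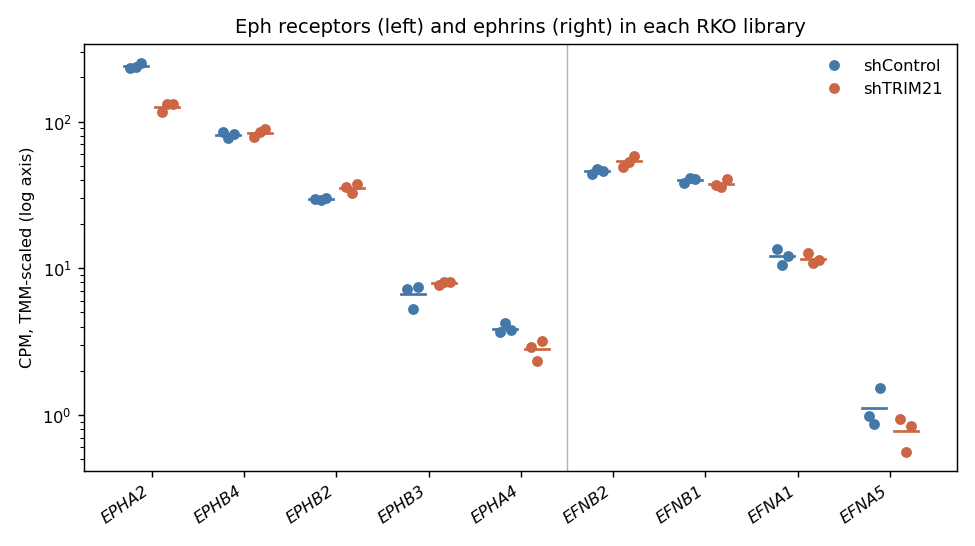
Level of the 9 detected genes in every library, in TMM-scaled CPM on a log axis, with receptors left and ephrins right of the vertical line; points are libraries and short lines are group means (n = 3). EPHA2 is the highest gene in both groups and lies at 115.8 to 130.9 CPM in shTRIM21 against 231 to 249 in shControl, while the other 8 genes shift by far less or overlap.

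EPHA2, a receptor for ephrin-A1 that is abundant in many carcinoma lines, had the largest difference of the 10 genes and was lower in shTRIM21. Its counts were 4345, 5126 and 4958 in shTRIM21 and 8739, 8606 and 9036 in shControl. Every shTRIM21 library lay far below every shControl library, and the libraries within a group were close together. Scaled levels were 125.8 ± 8.73 CPM and 238 ± 9.65 CPM (SD, n = 3 each), a fall of 47.2% (log2 fold change -0.92, SE 0.059). In bulk RNA, fewer cells that express a gene and less of its RNA per cell cannot be told apart. Ranked by size among the 1667 genes called lower, EPHA2 was number 103. Leaving out any 1 library moved the value only between -0.96 and -0.87, and the smallest fall over 16 alternatives was -0.71, with library sizes alone. EPHA2 lies on chromosome 1 at 16124337 to 16156069 (GRCh38.p14, minus strand) and is overlapped by EPHA2-AS1, which has no gene row of its own in the counts. Strand use in the counting is not given in the sources used here, so reads of the 2 could be counted together.

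Sequences just upstream of EPHA2, called lower, and of EPHB2 and EFNB2, the receptor and ligand called higher, are shown as a description. Any link between these promoters and the calls was not tested. Each run is the 250 bases before the annotated start, 5′ to 3′ on the gene's strand, from RefSeq on GRCh38.p14, and all 10 genes have such a window. For EFNA5 the bases after that start matched none of its transcripts used here, and EPHB2 and EPHA4 have 2 windows each. Capitals mark matches, on either strand, to 5 words: TGANTCA for AP-1, GGAATG for TEAD factors, CTTTGA for TCF factors, CCGGAA for ETS factors and GGGCGG, the GC box. No 2 marked words overlap.
EPHA2 (chr1:16156070-16156319, minus strand): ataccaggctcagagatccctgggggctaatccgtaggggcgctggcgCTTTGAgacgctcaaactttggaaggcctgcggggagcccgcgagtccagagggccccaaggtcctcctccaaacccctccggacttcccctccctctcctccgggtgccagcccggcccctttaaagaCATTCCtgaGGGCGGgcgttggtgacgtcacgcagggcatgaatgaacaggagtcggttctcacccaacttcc
EPHB2 (chr1:22710588-22710837, plus strand): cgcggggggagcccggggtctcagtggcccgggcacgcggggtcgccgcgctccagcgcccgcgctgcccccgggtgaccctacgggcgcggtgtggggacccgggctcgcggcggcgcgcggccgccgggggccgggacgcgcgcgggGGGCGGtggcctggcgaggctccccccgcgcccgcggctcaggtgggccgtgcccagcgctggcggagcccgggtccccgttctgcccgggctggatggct
EFNB2 (chr13:106535663-106535912, minus strand): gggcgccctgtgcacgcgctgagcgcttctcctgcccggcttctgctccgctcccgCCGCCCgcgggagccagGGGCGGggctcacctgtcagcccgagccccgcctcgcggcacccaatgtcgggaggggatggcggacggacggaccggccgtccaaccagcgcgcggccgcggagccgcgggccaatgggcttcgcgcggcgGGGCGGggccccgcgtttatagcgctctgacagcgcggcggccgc

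The EPHA2 window holds a TEAD word beginning 73 bases before the start, beside a GC box beginning at 64 bases, and a TCF word at 202 bases. The EPHB2 window shown holds 1 GC box, at 101 bases, and the EFNB2 window 3, at 194, 177 and 45 bases. Among the windows of the 10 genes, TEAD and TCF words occurred only in that of EPHA2, and no window held an AP-1 or ETS word. Over 35116 windows of this length, 11.9% hold the TEAD word, 11.2% the TCF word, 6.57% the AP-1 word, 14.5% the ETS word and 42.6% the GC box. A match describes these letters only and is not a measured binding site.

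EPHA4, which binds both ephrin classes, was a low receptor. It had 109, 92 and 121 counts in shTRIM21 and 138, 155 and 137 in shControl. Here the groups did not overlap, but the gap between them was narrow. The levels were 2.82 ± 0.431 and 3.88 ± 0.294 CPM (SD, n = 3), with a log2 fold change of -0.46 (SE 0.17), and EPHA4 was not called. It lies on chromosome 2 at 221418027 to 221574202 and overlaps TMEM256P2. EPHA1, on chromosome 7 at 143391129 to 143408856, was listed at 0 in all 6 libraries. CANX, FBL, RPL7A and TJP1, which are broadly expressed in human cells, are also listed at 0 throughout, so this 0 is not read as absence. EPHA1-AS1, which overlaps EPHA1, had 5 to 10 counts per library.

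EPHB2, a crypt receptor, had 1345, 1273 and 1422 counts in shTRIM21 and 1118, 1076 and 1094 in shControl. All 3 shTRIM21 libraries were above all 3 shControl libraries, which lay within a narrow band. The levels were 35.3 ± 2.58 and 29.7 ± 0.465 CPM (SD, n = 3), 1.19-fold higher in shTRIM21 (log2 fold change 0.25, SE 0.070). Leaving out shTRIM21 replicate 1 or 3, or any 1 of the shControl libraries, ended its call, with the log2 fold change between 0.20 and 0.25. With library sizes alone the change was 0.47, where the median of all tested genes was itself 0.218. EPHB2 lies on chromosome 1 at 22710838 to 22921500 and overlaps LOC124903874 and the microRNA genes MIR4253 and MIR4684.

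EPHB3, the second crypt receptor of the pair, had 287, 314 and 303 counts in shTRIM21 and 273, 195 and 269 in shControl. Here the shTRIM21 libraries lay close together just above the shControl range, in which replicate 2 was the low library. The means were 7.89 ± 0.209 and 6.65 ± 1.17 CPM (SD, n = 3), and the log2 fold change of 0.25 (SE 0.13) was not called. Without shControl replicate 2 it was 0.10. Without the other two shControl libraries, which hold the most ribosomal RNA, it was 0.57. EPHB3 lies on chromosome 3 at 184561785 to 184582408 with 0 overlapping genes.

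EPHB4, the ephrin-B2 receptor known best from blood vessels, was the second most abundant receptor. Its counts were 2939, 3311 and 3381 in shTRIM21 and 3201, 2825 and 2969 in shControl, and the groups overlapped. With 84.0 ± 5.51 against 81.2 ± 4.02 CPM (SD, n = 3) and a log2 fold change of 0.050 (SE 0.062), no difference was detectable beyond the spread of the libraries. EPHB4 lies on chromosome 7 at 100802565 to 100827523 and overlaps RN7SL750P and SLC12A9. For SLC12A9 the log2 fold change was 0.070 (SE 0.084), not called.

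EFNB2, a transmembrane ligand of EPHB2, EPHB3 and EPHB4, had 1840, 2084 and 2208 counts in shTRIM21 and 1650, 1759 and 1664 in shControl. Here the lowest shTRIM21 library, replicate 1, exceeded the highest shControl library by a small margin after scaling, 49.0 against 47.8 CPM. The means were 53.5 ± 4.66 and 45.8 ± 2.07 CPM (SD, n = 3), 1.17-fold higher in shTRIM21 (log2 fold change 0.22, SE 0.070). Leaving out replicate 2 or 3 of shTRIM21 or replicate 1 or 3 of shControl ended the call, as did library sizes alone (0.43). EFNB2 lies on chromosome 13 at 106489745 to 106535662 and overlaps LOC124903247.

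EFNB1, the other ephrin-B ligand among the 10, had 1386, 1398 and 1545 counts in shTRIM21 and 1447, 1511 and 1470 in shControl, and the groups overlapped. Its level was 37.8 ± 2.67 against 40.0 ± 1.47 CPM (SD, n = 3), with a log2 fold change of -0.081 (SE 0.068) that turned to 0.13 with library sizes alone. EFNB1 lies on chromosome X at 68829021 to 68842160. EFNA1, the best known ligand of EPHA2, had 474, 423 and 431 counts in shTRIM21 and 510, 389 and 440 in shControl. Here the groups overlapped widely at 11.6 ± 0.936 and 12.1 ± 1.46 CPM (SD, n = 3). The log2 fold change of EFNA1 was -0.058 (SE 0.11), but 0.17 with library sizes alone and 0.03 without shControl replicate 1. EFNA5 was near the limit of detection, with 35, 22 and 32 counts in shTRIM21 and 37, 32 and 55 in shControl, and its log2 fold change of -0.52 had an SE of 0.33. Without shControl replicate 3, the highest library, it was -0.26, so at this depth no difference in EFNA5 could be shown. EFNA5 lies on chromosome 5 at 107376894 to 107670937 and overlaps LOC124901038.

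To compare levels between genes, CPM was divided by transcript length in kilobases, taking the median length of a gene's protein-coding transcripts in GENCODE release 29. In shControl, EPHA2 led the 9 detected genes at 60.1 ± 2.43 CPM per kb (SD, n = 3 for all), followed by EPHB4 at 21.4 ± 1.06, EFNB1 at 12.1 ± 0.444 and EFNB2 at 9.69 ± 0.438. EPHB2 at 8.07 ± 0.126 and EFNA1 at 7.17 ± 0.869 CPM per kb came next, and their library ranges overlapped. EPHB3 at 1.57 ± 0.277, EPHA4 at 1.12 ± 0.0852 and EFNA5 at 0.228 ± 0.0702 CPM per kb closed the order. EPHA1, whose listed 0 is not read as absence, was not placed in it. All other neighbours in the order had ranges that did not overlap. In shTRIM21 the order of mean levels per length was the same, with EPHA2 at 31.8 ± 2.20 CPM per kb still first, and there the ranges of EFNB1 and EFNB2 overlapped. With the longest transcript in place of the median, EPHB2 and EFNA1 changed places, since the longest EPHB2 transcript has 10816 bases against a median of 3677.

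Over all 14 Eph receptor genes of the family, the summed level per length was 96.7, 93.7 and 100.5 CPM per kb in shControl and 67.9, 73.1 and 75.8 in shTRIM21. EPHA2 made up 62.0% ± 1.40 of this sum in shControl and 43.9% ± 1.13 in shTRIM21 (SD, n = 3). EPHA1, EPHA3 and EPHA5 entered the sum at their listed 0, which is not read as absence, so all shares are of the counted receptors only. With the longest transcript in place of the median, its share was 69.3% ± 1.40 in shControl and 52.1% ± 0.84 in shTRIM21. Without EPHA2 the receptors summed to 36.9 ± 1.90 CPM per kb in shControl and 40.5 ± 2.06 in shTRIM21. The share of EPHB4 among receptors was 22.1% ± 0.905 in shControl and 30.7% ± 0.361 in shTRIM21, although the level of EPHB4 itself overlapped between the groups. The 8 ephrin genes summed to 64.8 ± 1.43 CPM per kb in shControl and 71.6 ± 1.35 in shTRIM21.

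**Figure D2:**
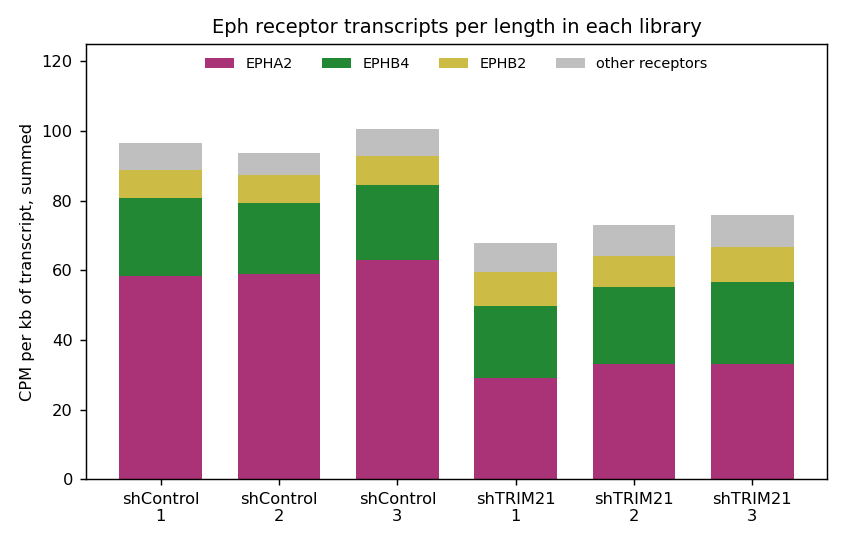
Summed CPM per kb of transcript for the 14 Eph receptor genes in each library (bars, 1 per library), divided into EPHA2, EPHB4, EPHB2 and the other receptors. The EPHA2 segment spans 58.4 to 62.9 CPM per kb in shControl and 29.2 to 33.0 in shTRIM21, while the segments of EPHB4 are of similar height in all 6 libraries.

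Ratios of genes within a library do not depend on the scaling between libraries. Per length, EPHA2 exceeded its ligand gene EFNA1 by a ratio of 8.47 ± 1.08 in shControl and 4.65 ± 0.662 in shTRIM21 (SD, n = 3), with no overlap between the groups. The ratio of EPHB2 to EFNB2 was 0.834 ± 0.0434 in shControl and 0.851 ± 0.0798 in shTRIM21, and the groups overlapped.

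The other 12 genes of the family were not among those chosen, and 5 of them passed the filter. Of these 5, 2 rose, 0 fell and 3 were not called, beside 9.77% higher and 11.0% lower among all tested genes. EPHB6, a receptor whose kinase domain lacks activity, rose most, with 357, 460 and 448 counts in shTRIM21 and 272, 216 and 248 in shControl. Here the groups were well apart, at 11.0 ± 1.31 against 6.64 ± 0.687 CPM (SD, n = 3), a 1.66-fold rise (log2 fold change 0.73, SE 0.12, edgeR adjusted p = 0.000662). EFNA3, a ligand of EphA receptors, had 1088, 1074 and 917 counts in shTRIM21 and 828, 699 and 663 in shControl. It rose 1.36-fold, from 19.7 ± 1.93 to 26.9 ± 2.43 CPM (SD, n = 3; log2 fold change 0.44, SE 0.090, edgeR adjusted p = 0.00294). Both were called under all 16 alternatives.

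EFNA4 was at 13.9 ± 1.22 CPM in shTRIM21 and 11.5 ± 0.454 in shControl without overlap (SD, n = 3), and just missed the threshold (log2 fold change 0.28, SE 0.096, edgeR adjusted p = 0.0522). EFNA4, EFNA3 and EFNA1 lie in this order on the plus strand of chromosome 1, at 155063740 to 155069553, 155078837 to 155087538 and 155127876 to 155134899. The 3 neighbours thus had log2 fold changes of 0.28, 0.44 and -0.058, and whether they differ was not tested. The readthrough EFNA4-EFNA3 overlaps both EFNA4 and EFNA3, so reads of these genes may be shared. ADAM15-EFNA4 and DCST1-AS1 overlap EFNA4 as well. EFNA2 was at 13.4 ± 0.229 and 13.3 ± 0.359 CPM and EPHA10 at 7.10 ± 0.222 and 6.89 ± 1.0 CPM in shTRIM21 and shControl, both without a call. Per length, EFNA2 at 14.1 ± 0.378 CPM per kb in shControl was the highest ephrin of the family, above EFNB1. In shTRIM21 EFNA3 was highest, at 15.1 ± 1.36 CPM per kb against 14.1 ± 0.242 for EFNA2 (SD, n = 3), with overlapping library ranges. The place of EFNA2 rests on the length of 1 transcript of 949 bases.

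The 7 family genes below the filter were EPHA3, EPHA5, EPHA6, EPHA7, EPHA8, EPHB1 and EFNB3. EPHA3 and EPHA5 were listed at 0 in every library. EPHA8 had 8, 20 and 12 counts in shTRIM21 and 7, 2 and 3 in shControl, too few for the test. EPHB1 had 1 to 11 counts per library, and EPHA6, EPHA7 and EFNB3 had at most 6.

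**Figure D3:**
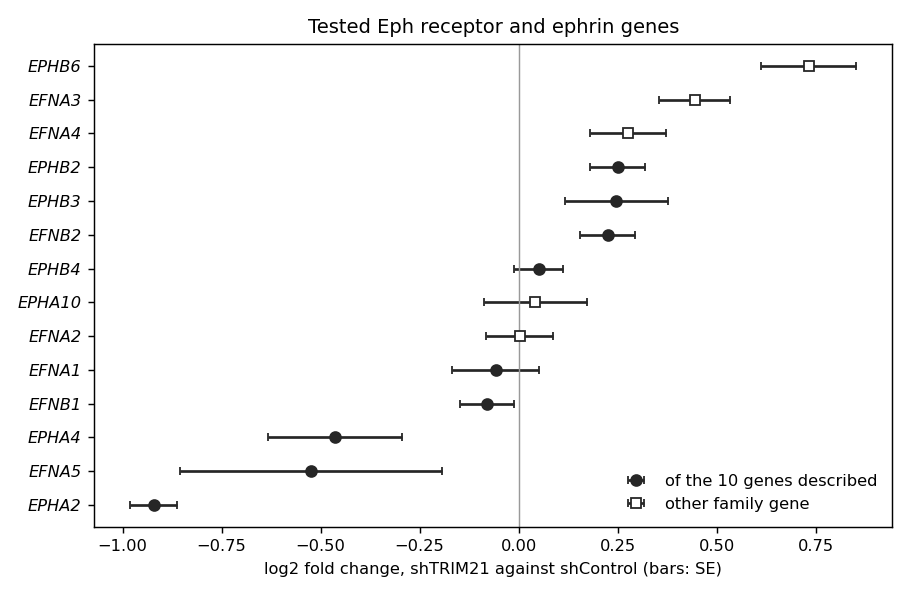
Log2 fold change of shTRIM21 against shControl for the 14 tested Eph receptor and ephrin genes (points; bars are SE), with filled circles for the 9 tested of the 10 genes described and open squares for other family genes. EPHA2 at -0.92 stands far left and EPHB6 at 0.73 far right, and EFNA5 has the widest error.

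Forward signalling below Eph receptors runs through adaptors, Src-family and Abl kinases and exchange factors. Of 40 tested genes in this list 4 rose, 4 fell and 32 were not called, or 20% called beside 20.8% of all tested genes, with a median log2 fold change of -0.017. This list and those below were drawn up by textbook role, but with earlier results of these data known. Their shares and p-values are therefore given as a description. ROCK2, a kinase below RhoA, fell by 0.50 (SE 0.058) on the log2 scale, from 100.3 ± 4.52 to 70.7 ± 3.04 CPM (SD, n = 3; edgeR adjusted p = 2.35e-05). PTPN1, a phosphatase that acts on EphA receptors, fell by 0.40 (SE 0.052), the Src-family kinase gene YES1 by 0.26 (SE 0.060) and PAK2 by 0.22 (SE 0.054). The Src-family kinase gene FYN rose by 0.60 (SE 0.12, edgeR adjusted p = 0.00327), the adaptor gene GRB10 by 0.37 (SE 0.077), the PI3-kinase subunit gene PIK3R1 by 0.32 (SE 0.095) and the focal adhesion kinase gene PTK2 by 0.18 (SE 0.054). RHOA, RAC1 and CDC42 were not called, with log2 fold changes of -0.056, 0.12 and 0.076. Leaving out shTRIM21 replicate 2 or 3, or shControl replicate 1 or 2, ended the calls of PIK3R1 and PTK2, and leaving out shControl replicate 3 also ended that of PIK3R1. Without the 2 shControl libraries richest in ribosomal RNA, replicates 1 and 3, the calls of FYN and GRB10 were lost as well.

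Reverse signalling runs through PDZ-domain and other partners of ephrin-B, and through co-receptors of ephrin-A. In this list 4 of 18 tested genes rose and 4 fell, or 44.4% called beside 20.8% of all tested genes, with a median of -0.096. NGFR, the p75 neurotrophin receptor that can act as an ephrin-A co-receptor, rose from 11.2 ± 1.16 to 20.7 ± 1.13 CPM (SD, n = 3; log2 fold change 0.88, SE 0.095, edgeR adjusted p = 1.41e-05) and was called under all 16 alternatives. RET, another such co-receptor, rose by 0.57 (SE 0.15), the phosphatase gene PTPN13 by 0.38 (SE 0.093) and STAT3 by 0.21 (SE 0.059). CAV1, which encodes caveolin-1, fell by 0.33 (SE 0.057), RGS3, which links ephrin-B to G proteins, by 0.32 (SE 0.071), DVL1 by 0.29 (SE 0.052) and CNKSR1 by 0.23 (SE 0.079). Leaving out shTRIM21 replicate 2 ended the calls of RET, PTPN13, STAT3 and CNKSR1. The calls of RET and STAT3 were also lost without shTRIM21 replicate 3 or shControl replicate 2, that of STAT3 without shControl replicate 3, and that of CNKSR1 without any 1 library other than shControl replicate 2. Leaving out shControl replicates 1 and 3 together leaves 1 shControl library, so only log2 fold changes are given. There NGFR was at 1.05, RET at 0.88, PTPN13 at 0.38 and STAT3 at 0.26. CAV1 was at -0.36, RGS3 at -0.31, DVL1 at -0.25 and CNKSR1 at -0.11.

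Ephs and ephrins are shed by metalloproteases, cut by gamma-secretase and removed after ubiquitination by CBL. Of 17 tested genes in this list 1 rose and 4 fell, or 29.4% called beside 20.8% of all tested genes, with a median of -0.006. SH3KBP1, an adaptor that works with CBL in receptor uptake, fell from 85.8 ± 1.24 to 60.8 ± 2.58 CPM (SD, n = 3; log2 fold change -0.50, SE 0.056, edgeR adjusted p = 2.02e-05). CBL itself fell by 0.20 (SE 0.062), its partner gene CD2AP by 0.24 (SE 0.080) and the sheddase gene ADAM17 by 0.19 (SE 0.065). APH1B, a gamma-secretase subunit gene, rose by 0.66 (SE 0.16, edgeR adjusted p = 0.0105), while ADAM10, the main ephrin sheddase, was at -0.006 (SE 0.051) and MMP14 at 0.10 (SE 0.090), neither called. Leaving out replicate 1 or 2 of shTRIM21, or replicate 1 or 3 of shControl, ended the calls of CBL and ADAM17, and leaving out shControl replicate 2 ended that of ADAM17, and both values turned to 0.02 with library sizes alone. For CD2AP the groups overlapped, at 51.45 ± 5.58 CPM in shTRIM21 and 60.59 ± 5 in shControl (SD, n = 3). Leaving out replicate 2 or 3 of shTRIM21 or replicate 1 or 2 of shControl ended the call of CD2AP.

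Among 15 tested crypt and beta-catenin genes 2 rose and 3 fell, or 33.3% called beside 20.8% of all tested genes, with a median of 0.125. AXIN2, a feedback target of beta-catenin, rose from 21.8 ± 2.26 to 30.5 ± 0.859 CPM (SD, n = 3; log2 fold change 0.49, SE 0.082, edgeR adjusted p = 0.000743), and NKD1, another feedback gene, rose by 0.32 (SE 0.092). KLF5 fell by 0.39 (SE 0.062), the ubiquitin ligase gene RNF43 by 0.23 (SE 0.063) and SOX9 by 0.21 (SE 0.051). SOX9 changed to 0.0006 with library sizes alone. Without shControl replicates 1 and 3 together, which leaves 1 shControl library, KLF5 was at -0.46, RNF43 at -0.13 and SOX9 at -0.22. In that setting AXIN2 was at 0.66 and NKD1 at 0.41. CTNNB1 and TCF7L2, which encode beta-catenin and its main intestinal partner, were at 0.14 (SE 0.048) and 0.17 (SE 0.060) without a call, and MYC was at -0.014 (SE 0.060). LGR5 had 9 reads in all, and LEF1, ASCL2, OLFM4 and SMOC2 were listed at 0. The calls of SOX9, RNF43 and NKD1 were lost without shTRIM21 replicate 2, that of RNF43 also without shTRIM21 replicate 1 or shControl replicate 1 or 3, and that of NKD1 also without shTRIM21 replicate 3 or shControl replicate 2 or 3.

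**Figure D4:**
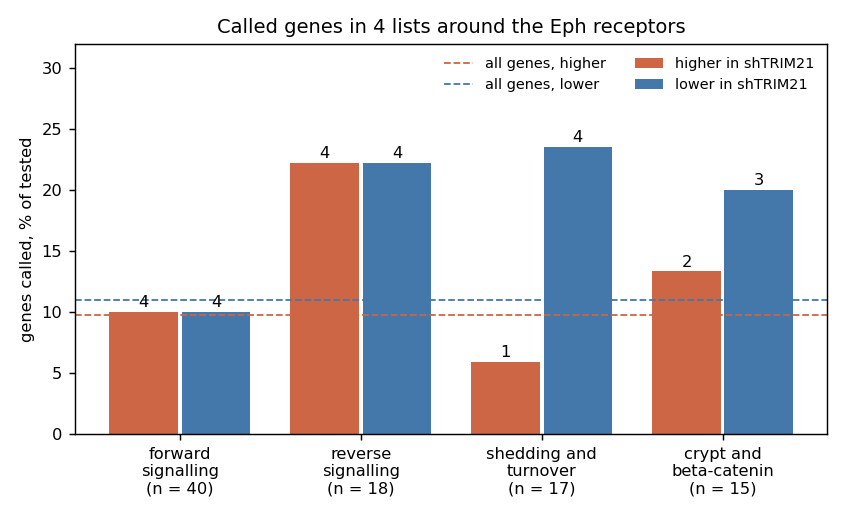
Share of tested genes called higher (orange) or lower (blue) in shTRIM21 in 4 lists of genes around the Eph receptors, with the number of genes above each bar and dashed lines for all tested genes (9.77% higher, 11.0% lower). The forward list sits at the dashed lines, and the other lists have 1 to 4 genes in each direction.

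The scaling bears on the direction of small changes in these lists. With library sizes alone, where the median of all tested genes was 0.218, 0 genes of the 4 lists were called lower and 3 were called higher in each list. With the ribosomal RNA rows left out before TMM scaling, the median of all tested genes was -0.001 and 29 genes of the 4 lists were called. There TRIM21 was at -0.549, SOX9 at -0.219, CBL at -0.206 and ADAM17 at -0.1985, each called lower.

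The genes whose log2 CPM over the 6 libraries ran most like that of EPHA2, among 11096 genes averaging 5 CPM or more, were TGM2, VASP and FLNA, with Pearson correlations of 0.9976, 0.9975 and 0.9975. Their log2 fold changes were -1.25, -0.18 and -0.57 beside -0.92 for EPHA2. For EPHB2 they were CAPN5, CYB5RL and NEU3, with correlations of 0.993, 0.988 and 0.987 and log2 fold changes of 0.38, 0.20 and 0.18 beside 0.25. With 6 libraries in 2 groups, the group difference fixes most of such a correlation, and all values share the same libraries and scaling.

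**Figure D5:**
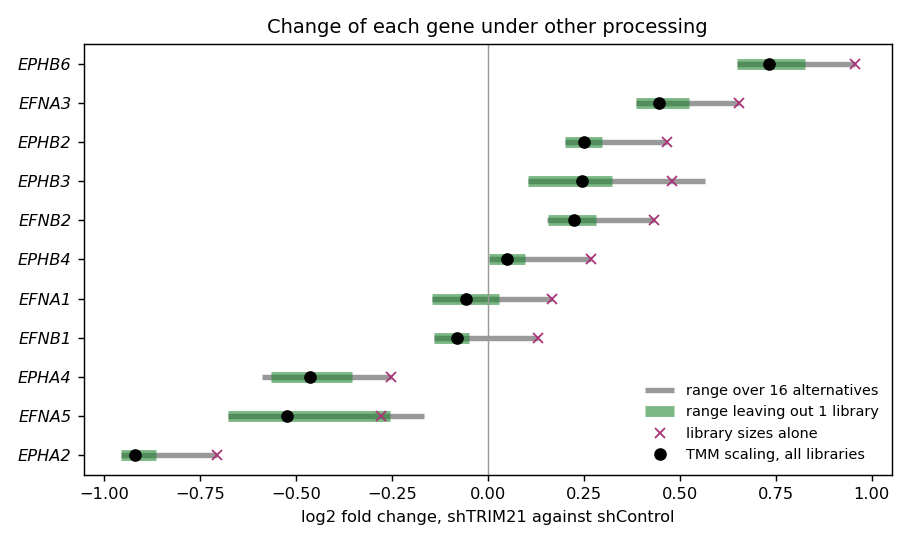
Log2 fold change of the 9 detected genes and of EPHB6 and EFNA3 with TMM scaling (black points), its range over 16 alternatives (grey), its range when 1 library is left out (green) and its value with library sizes alone (crosses). EPHA2 stays between -0.96 and -0.71, while the ranges of EFNA1 and EFNB1 cross 0.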

How the data were processed

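The 6 tables are raw read counts per gene symbol, 1 per library, as the authors deposited them without normalization. TopHat2, edgeR 3.38.1, limma 3.52.2 and hg38 are named, without a role, in the submitters' processing notes. The counting program, annotation and strand use are not stated in the labels. Genes and lists were chosen with earlier results of these data known.

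Counts were analysed in R 4.3.3 with edgeR 4.0.16 (filterByExpr, minimum count 10 and minimum total 15; TMM factors; quasi-likelihood F test; Benjamini-Hochberg adjustment over all 15131 genes; calls at adjusted p under 0.05). SE was taken as the absolute log2 fold change over the root of F. Alternatives used DESeq2 1.42.0, limma 3.58.1 (voom), other scalings and filters, and libraries left out. The fit was tested on simulated data. Named list genes are the up to 4 called genes per list and direction with the smallest p-values. No 2 libraries were identical, and chi-square per degree of freedom between replicates was 4.43 to 9.76.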

Additional observations from a re-analysis of the deposited data

How the results depend on the processing

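The rises of EPHB6 and EFNA3 kept their direction and their call under all 16 alternatives. As a description, EPHA2 was called lower under all 16, and EPHB2 and EFNB2 were each called higher under 10. The number of the 10 genes called higher was 2, and 0 to 1 with any 1 library left out. It was 1 with library sizes alone and 1 without the 2 shControl libraries richest in ribosomal RNA, where EPHB3 was called and EPHB2 and EFNB2 were not. The number called lower was 1 throughout. Genes called over all tested were 3146, and 1968 with library sizes alone, 1958 without those 2 shControl libraries, and 1844 to 2592 with 1 library left out, the lowest without shTRIM21 replicate 2. Genes of the 4 lists called were 26, and 12 with library sizes alone and 14 to 23 with 1 library left out. Library sizes alone turned SOX9 to 0.0006, CBL to 0.016 and ADAM17 to 0.0201; the median of all genes was 0.218 there, and 93.0% of calls were higher against 47.0%. With upper-quartile factors 62.1% of calls were higher and the calls of CNKSR1, CBL, CD2AP and ADAM17 were lost. With limma-voom those of CNKSR1, CD2AP and ADAM17 were lost, and without the filter on low counts that of ADAM17. Same-numbered libraries did not deviate together (correlations -0.013, 0.006 and -0.080), so the numbers were not taken as pairs. With the replicate block, 2905 genes were called and the calls of CNKSR1 and ADAM17 were lost; no other called family or list gene given here lost its call. Of 512 values of 32 other named genes over the alternatives, 425 stayed on their side of the threshold, 81 lost the call with the same sign, 3 gained it and 3 were called values that changed sign. Among genes without a call, EFNA2 and EPHA10 also changed sign under some alternatives. With the longest transcript, 8 of the 10 genes kept their rank by level per length, where EPHA1, listed at 0, was counted in last place. Low counts limit what can be said of EFNA5 and of the family genes below the filter.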
